A study of Mus musculus with 24 samples.

Results

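The nuclear genes for the enzymes of mitochondrial respiration were followed in E14 mouse embryonic stem cells (mESCs) and during their directed differentiation towards extraembryonic endoderm (XEN). Members were chosen by gene symbol alone, as every symbol of the day 1 to 4 count files that starts with Nduf, Sdh, Uqcr, Cox4 to Cox8 or Atp5 and follows the usual form of a subunit name, without 4 pseudogene names. This gave 79 members of 30590 listed symbols, namely 36 for complex I, 4 for complex II, 8 for complex III, 14 for complex IV and 17 for complex V. A few names and products differ. Ndufa4 is counted under complex I although its product is now placed in complex IV, Atp5s and Atp5sl carry the prefix without being core subunits, and Cox4i1, Cyc1 and Ndufab1 fall outside the name rule.

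Wild-type (WT) E14 cells of 129/Ola background and AGO2 knockout (KO) cells of the same line were sampled on days 1, 2, 3 and 4 of a 5-day protocol that used activin A at 10 ng/mL and retinoic acid at 0.1 µM in medium with 15% serum. Each day and genotype has 2 libraries, and AGO2 is the Argonaute protein that binds small RNAs. A second set holds re-used libraries of the differentiated endpoint, called diff_XEN, with 2 WT libraries and 1 library each of KO clones C4 and 5-3, and 2 libraries of undifferentiated WT mESCs kept with 100 U/mL leukaemia inhibitory factor, at passages 33 and 42. No label gives the clone of the KO libraries of the course, and KO mESCs were not analysed here. Whether the replicates came from separate cultures was not stated, and the p-values therefore cover the spread among these libraries alone, which may be technical. In RNA from bulk cultures, fewer cells of a type and less RNA per cell cannot be told apart.

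The respiratory chain passes electrons from NADH and succinate to oxygen. Complex I oxidises NADH, complex II oxidises succinate and also serves the citric acid cycle, complex III hands electrons to cytochrome c, complex IV reduces oxygen, and the proton gradient so made drives ATP synthesis by complex V. Complex II is built from nuclear genes only, whereas the other complexes join nuclear-encoded subunits to a few made inside mitochondria. Some complex IV subunits exist as paired isoforms, with a form found in most tissues and a form of heart and skeletal muscle or of testis. Pluripotent stem cells are known for relying strongly on glycolysis, and respiration usually gains weight as they differentiate.

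Promoters of the members are shown because many members moved together. RefSeq windows of 250 bases before the annotated start (build GRCm38.p6) were found for 67 of the 79 members, and 12 had none. A match to the binding motif of NRF1, a transcription factor known for its sites in respiratory chain promoters, was searched on both strands as the letters GCGCA, then any 1 base, then GCGC. It was present for 13 of 67 members (19.4%) and for 4.23% of 27025 genes. The core of the motif bound by ETS factors such as GABP, searched as CCGGAAG on both strands, was present for 12 of 67 members (17.9%) and 7.83% of genes. The motifs can share at most 1 base at their ends, and a match describes letters, not a bound site. The windows below are shown 5′ to 3′ without the bases that the GENCODE annotation places inside the gene, with NRF1-type and ETS-type matches in capitals. Cox7a1 (chr7:30183921-30184143, plus strand) and Cox7a2 (chr9:79759879-79760103, minus strand) are alternative isoforms of 1 complex IV subunit and differed in the comparisons. Cox6a1 (chr5:115348982-115349208, minus strand) holds 2 NRF1-type matches, and Atp5e (chr2:174464106-174464351, minus strand) holds an ETS-type match read on the opposite strand.
Cox7a1: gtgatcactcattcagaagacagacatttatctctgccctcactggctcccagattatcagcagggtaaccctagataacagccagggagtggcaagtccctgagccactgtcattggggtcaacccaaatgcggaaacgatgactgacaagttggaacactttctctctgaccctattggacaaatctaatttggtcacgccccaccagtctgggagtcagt
Cox7a2: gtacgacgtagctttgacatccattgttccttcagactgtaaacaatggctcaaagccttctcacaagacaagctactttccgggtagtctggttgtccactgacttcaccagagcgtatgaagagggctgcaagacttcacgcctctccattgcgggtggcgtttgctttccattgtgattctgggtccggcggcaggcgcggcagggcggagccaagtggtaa
Cox6a1: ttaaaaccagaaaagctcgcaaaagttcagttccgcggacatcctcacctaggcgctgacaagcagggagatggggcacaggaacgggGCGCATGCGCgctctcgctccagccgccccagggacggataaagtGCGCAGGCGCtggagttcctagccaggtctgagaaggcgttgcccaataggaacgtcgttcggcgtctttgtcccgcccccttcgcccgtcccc
Atp5e: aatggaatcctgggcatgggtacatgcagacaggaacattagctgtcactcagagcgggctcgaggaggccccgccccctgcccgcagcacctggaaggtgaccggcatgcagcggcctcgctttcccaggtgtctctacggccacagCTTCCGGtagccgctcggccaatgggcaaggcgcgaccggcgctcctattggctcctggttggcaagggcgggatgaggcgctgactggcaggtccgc
No NRF1-type or ETS-type match lies in the windows of Cox7a1 and Cox7a2.

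Raw counts totalled 10601574 to 27147835 per library in the course and 13941826 to 40139219 at the endpoint. Ago2, the gene targeted, checked the labels. On days 1 to 4 it ranged from 186 to 581 CPM (counts per 1000000 of the scaled library size) in the 8 WT libraries. The 8 KO libraries ranged from 33.8 to 148 CPM, with no overlap. In diff_XEN it had 389 and 427 CPM in WT, 115 CPM in clone C4 and 9.3 CPM in clone 5-3, and that difference did not pass the test (log2 change -2.72 ± 1.04, adjusted p = 0.081). All 8 endoderm markers rose from day 1 to day 4 in both genotypes, and 5 of 6 pluripotency markers fell in WT and 6 of 6 in KO. Of 6 mesenchyme markers, 5 rose and 1 fell in each genotype, and their sum went from 12.7 and 13.0 CPM on day 1 to 753 and 1532 CPM on day 4 in WT. In KO cells it went from 6.03 and 7.27 CPM to 974 and 1324 CPM. KO day 1 replicate 2 stood apart from the other course libraries in the members, as described below. The day 3 replicates differed in pluripotency markers, with 386 and 991 CPM in sum in WT replicates 1 and 2 and 729 and 198 CPM in KO replicates 1 and 2.

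Complex V had the highest summed level of the 5 complexes in every course library. Its 17 genes summed to between 3759 and 8232 CPM in the 16 course libraries, followed by complex I with 1892 to 4439 CPM, complex IV with 872 to 2487 CPM, complex III with 732 to 1863 CPM and complex II with 484 to 763 CPM. Per kilobase of transcript, Atp5b, the catalytic beta subunit of the ATP synthase, had the highest mean level of all members, at 871 CPM per kb over the 16 libraries. Atp5a1, the alpha subunit, followed at 417 CPM per kb, Cox6c of complex IV at 402 CPM per kb and Atp5g3, a gene for the membrane ring subunit c, at 392 CPM per kb. These libraries ranged from 688 to 1320 CPM per kb for Atp5b and from 319 to 622 CPM per kb for Atp5a1, so the 2 genes did not overlap, whereas Cox6c with 277 to 754 CPM per kb and Atp5g3 with 285 to 699 CPM per kb overlapped with each other and with Atp5a1. Uqcrh led complex III at 268 CPM per kb, Ndufa4 led the complex I names at 287 CPM per kb, and Sdhd led complex II at 97.9 CPM per kb. At the low end were Cox6a2, Cox7b2 and Cox8c, with means of 1.2 to 3.2 CPM per kb, and Ndufb2, at 1.6 CPM per kb. The Ndufb2 value rests on a transcript of 4371 bases with a coding sequence of 315, so it may be too low. Before division by length Ndufb2 had 4.54 to 13.2 CPM in the course libraries.

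**Figure D1:**
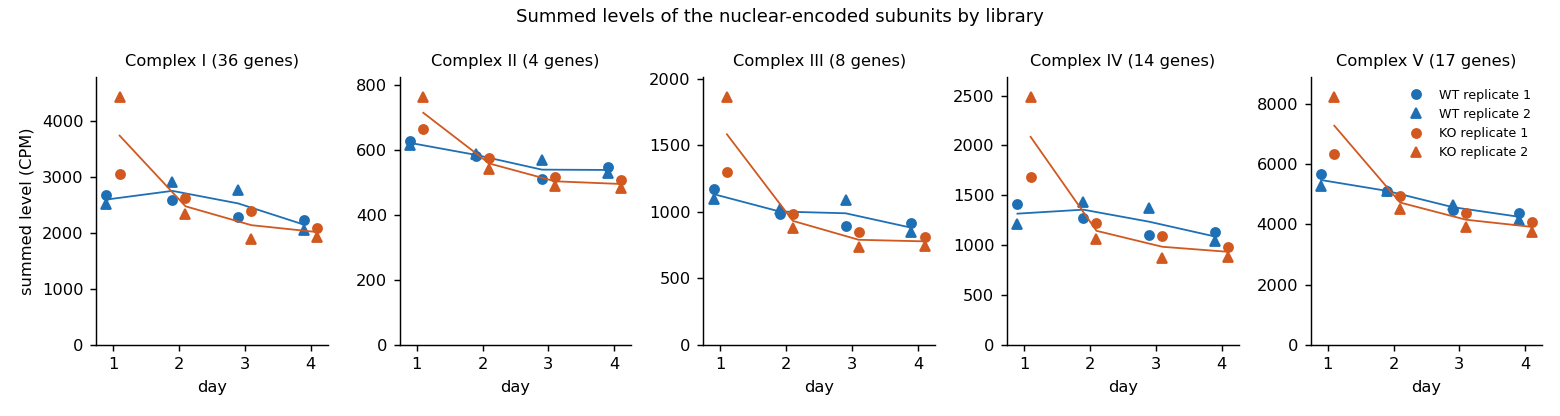
Summed level of the members of each complex (CPM, vertical axes from 0) against day, with a point for each library of WT and KO cells and lines through the means of 2 libraries. KO day 1 replicate 2 is the highest library in all 5 panels, for example 8232 CPM in complex V, and day 4 libraries are lowest or among the lowest.

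On day 1 the members were higher in KO than in WT cells. Of 79 tested, 38 rose and 0 fell at a Benjamini-Hochberg adjusted p below 0.05 in the quasi-likelihood test of edgeR over all genes, with a median log2 fold change of 0.59. Over all 17694 genes, 6.89% were called higher and 6.71% lower, and the median was -0.02. By complex, 19 of 36 members of complex I rose, 1 of 4 of complex II, 3 of 8 of complex III, 8 of 14 of complex IV and 7 of 17 of complex V.

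Cox8a, the ubiquitous form of the smallest subunit of complex IV, had 80.4 and 75.3 CPM in the WT libraries of day 1 and 117 and 187 CPM in the KO libraries. Both KO libraries were above both WT libraries, and Cox8a rose by 0.97 ± 0.19 on the log2 scale (SE, adjusted p = 0.014). Atp5e, the epsilon subunit of the ATP synthase head, had 100.5 and 67.5 CPM in the WT libraries against 130 and 199 CPM in the KO libraries, a log2 change of 0.97 ± 0.21 (adjusted p = 0.018). Uqcr10, a small subunit of complex III, had 86.1 and 84.8 CPM in WT against 121 and 202 CPM in KO, with a log2 change of 0.91 ± 0.21. In each of these genes KO replicate 2 lay well above KO replicate 1. Ndufb2, Ndufa3 and Ndufb7, accessory subunits of complex I, changed by 1.19, 0.91 and 0.88 on the log2 scale. Ndufb2 reads can be shared with an overlapping gene of the same strand. Cox6a1 rose by 0.83, Atp5k, a subunit of the ATP synthase membrane part, by 0.83, and the low testis isoform Cox7b2 by 1.92, from 19 and 12 counts in WT to 62 and 53 counts in KO. Only Ndufs1, Cox6a2, Cox8c and Atp5s had a negative log2 change on day 1, of -0.13, -1.37, -0.11 and -0.07, and none of these passed the test.

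The day 1 count depended on single libraries, and the number of all genes called moved in the same direction each time. Without KO replicate 2, and likewise without WT replicate 2, no member was called. Without WT replicate 1, 5 members were called, and without KO replicate 1, 64. Without KO replicate 2 the log2 change of Cox8a was 0.61 and that of Uqcr10 0.51. Other lists moved beside the members on that day, with 60 of 88 cytosolic ribosomal protein genes higher (median 0.70), 30 of 75 mitochondrial ribosomal protein genes higher (median 0.54), and 6 of 8 endoderm markers lower (median -1.97, 153 to 177 CPM in sum in KO and 231 to 259 CPM in WT). The part of these in the members' difference was not tested.

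Transcript length moved with the day 1 difference as well. Length here is that of a gene's longest annotated transcript, coding or not, so members with a short messenger RNA can count as longer. Of the 79 members, 52 belong to the shortest 20% of genes by this measure, at most 1543 bases. The median log2 change of all 3430 genes of that class was 0.50. Among them 18.3% were called higher, and 29 of the 52 short members were. Among the longer genes the median was -0.11 with 3.96% called higher, and 9 of 27 longer members were called, with a median of 0.43. KO day 1 replicates 1 and 2 had the strongest tilt towards short transcripts of the 16 libraries, with a Spearman rho between a gene's deviation from its mean and its length of -0.33 and -0.47 over 17142 genes. The members' median deviation in them was 0.40 and 0.95. Trends with GC content and length were then taken out of every library, an alternative chosen after seeing the data. This called 8 of 79 members higher on day 1 and 0 lower, with a median of 0.20. Over all genes, 1704 of 17694 were called in either direction, with a median of 0.03. In that fit Ndufb2 (1.52, adjusted p = 0.0086), Ndufb7 (1.02, adjusted p = 0.020) and Atp5e (0.80, adjusted p = 0.017) passed the test. Cox8a, Uqcr10, Ndufa3, Cox6a1 and Atp5k did not, at 0.17, 0.14, 0.34, -0.00905 and 0.09. The length trend took each gene's longest annotated transcript, at least 4371 bases for Ndufb2, whose coding sequence has 315. A short messenger RNA can thus be treated as a long one, and the part of this in these calls was not tested.

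**Figure D2:**
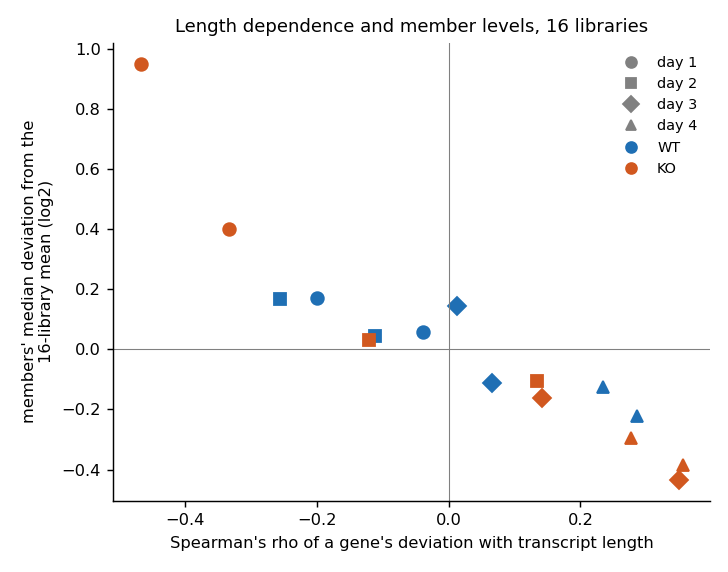
Median deviation of the members from their mean over 16 libraries (log2, vertical axis) against the Spearman correlation, across genes, of a library's deviations with transcript length (horizontal axis), with a point for each library, coloured by genotype and shaped by day. KO day 1 replicate 2 lies at the upper left, at -0.47 and 0.95, and KO day 3 replicate 2 and the KO day 4 libraries lie at the lower right.

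From day 2 on few members were called between genotypes, although 70, 75 and 64 of the 79 had a negative log2 change on days 2, 3 and 4. The median of the shortest 20% of genes was -0.11, -0.13 and -0.09 on these days. Longer genes had medians of 0.02, 0.03 and 0.02, and longer members -0.11, -0.27 and -0.15. On day 2, 0 rose and 1 fell, with a median of -0.14, against 0.774% of all genes called higher and 0.853% lower (1.63% in all). On day 3 edgeR called 0 members, against 1.83% of all genes higher and 3% lower (4.83% in all). The median was -0.28, and 16 members had an unadjusted p below 0.05, each with a negative change. DESeq2 called 2 members, against 1337 of 17694 genes in either direction. Leaving out WT day 3 replicate 1 raised the number of members called lower, and the number of all genes called rose too. On day 4, 0 rose and 1 fell, with a median of -0.17, against 1.99% of all genes higher and 5.05% lower (7.04% in all). In the mean of the 4 days, 0 rose and 2 fell, with a median of 0.00, while 7.52% of all genes were called higher and 10% lower (17.5% in all). Leaving out KO day 1 replicate 1 raised the count in that mean, with most calls then higher. Leaving out any 1 of 11 other libraries lowered it, and the number of all genes called moved as well. The highest and lowest mean differences among tested members were 0.34 ± 0.13 for Ndufb2 and -0.27 ± 0.10 for Ndufv3 in complex I, 0.07 ± 0.06 for Sdha and -0.19 ± 0.07 for Sdhd in complex II, and 0.08 ± 0.10 for Uqcr10 and -0.18 ± 0.07 for Uqcrc2 in complex III. None of these passed the test.

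Cox7a1 was the member called on days 2 and 4. It encodes the heart and skeletal muscle isoform of subunit VIIa of complex IV and lies on chromosome 7 (chr7:30184144-30186078, GRCm38, plus strand). On day 1 it had 19.5 and 12.3 CPM in WT and 17.2 and 20.2 CPM in KO, which overlap. On day 2 WT had 24.4 and 29.3 CPM and KO 11.5 and 8.5 CPM, a log2 change of -1.42 ± 0.29 (adjusted p = 0.024). Day 3 gave 20.8 and 11.1 CPM in WT and 9.6 and 7.4 CPM in KO, a change of -0.89 ± 0.30 that did not pass (adjusted p = 0.11). On day 4 WT had 12.6 and 15.0 CPM and KO 5.2 and 6.3 CPM, a change of -1.26 ± 0.31 (adjusted p = 0.025). From day 2 to day 4 every KO library was thus below every WT library of its day. In the mean of the 4 days the change was -0.83 ± 0.15 (adjusted p = 0.0015), and it ranged from -0.93 to -0.69 over 23 alternatives, each of which kept the call. The calls of days 2 and 4 were lost without any 1 of the 4 libraries compared, with log2 changes of -1.66 to -1.22 on day 2 and -1.40 to -1.09 on day 4.

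Cox7a2, the isoform of most tissues, was not called on days 2 to 4. On day 2 it ranged from 83.9 to 101 CPM over the 4 libraries, where the genotypes overlap. On day 3 it had 90.0 and 137 CPM in WT against 72.9 and 64.2 CPM in KO, without overlap, and the log2 change of -0.73 ± 0.20 did not pass (adjusted p = 0.056). On day 4 it had 85.5 and 76.9 CPM in WT against 76.3 and 68.3 CPM in KO. Its mean genotype difference was -0.09 ± 0.10 (adjusted p = 0.57). Per kilobase of transcript Cox7a1 ranged from 10.7 to 60.4 CPM per kb over the course and Cox7a2 from 97.4 to 323 CPM per kb, with Cox7a2 above Cox7a1 in every library. Of 8 muscle markers, 6 were tested, and edgeR called 0 between genotypes in the mean of the 4 days, with 0 at an unadjusted p below 0.05 and a median of -0.07. Their summed level was 32.0 to 33.4 CPM in WT and 27.3 to 28.7 CPM in KO on day 2, and 61.7 to 234 CPM in WT and 100 to 219 CPM in KO on day 4. Between 0 and 2 of the 8 were at 0 in a course library, and Ckmt2 was at 0 in 12 of the 16 and at most 0.06 CPM.

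Atp5s was the other member called in the mean of the 4 days, at -0.39 ± 0.13 (adjusted p = 0.047). Its WT libraries ranged from 7.8 to 12.4 CPM and its KO libraries from 5.6 to 9.6 CPM, which overlap. The name list takes it as an ATP synthase factor, but it is not a core subunit, and its call was kept in 7 of 23 alternatives, with adjusted p up to 0.14.

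**Figure D3:**
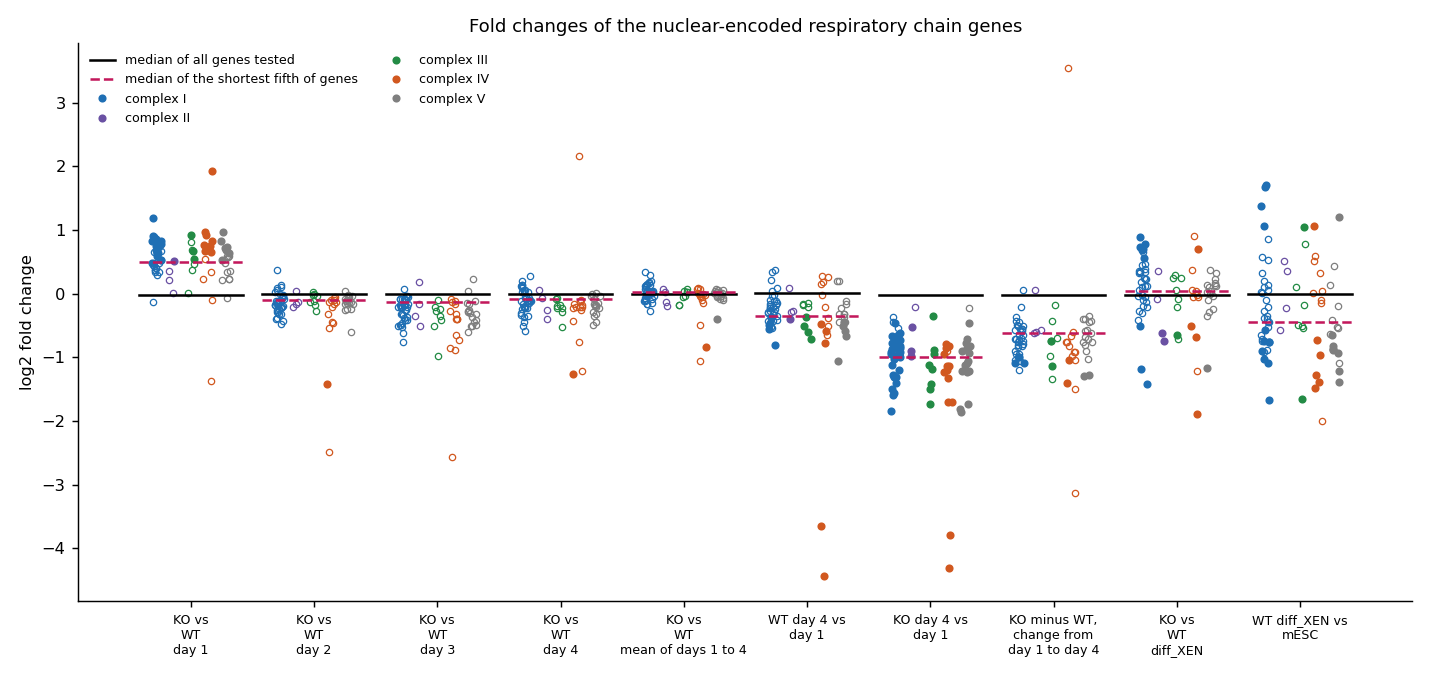
Log2 fold change of each member (vertical axis) in the 10 comparisons, coloured by complex, with filled points for members past the adjusted p of 0.05, a black line for the median of all genes tested and a dashed line for the median of the shortest 20% of genes. Members lie around the dashed line on day 1 and in both courses, at medians of 0.59, -0.31 and -0.95.

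Along the protocol nearly all members fell in KO cells, and in WT cells the share that fell was near that of all genes. In WT cells 20 of 79 fell and 0 rose between day 1 and day 4, with a median of -0.31, against 21.6% of all genes called lower and 26.9% higher (48.5% in all). By complex, 5 of 36, 1 of 4, 4 of 8, 5 of 14 and 5 of 17 members fell. In KO cells 73 of 79 fell and 0 rose, with a median of -0.95, against 32.9% of all genes called lower and 33.3% higher (66.3% in all). Here 33 of 36, 3 of 4, 8 of 8, 13 of 14 and 16 of 17 members fell.

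In WT cells the fall of Atp5g1 from 209 and 246 CPM on day 1 to 117 and 102 CPM on day 4 was -1.05 ± 0.25 on the log2 scale (adjusted p = 0.0031). Atp5g1 is 1 of 3 genes whose products mature to the same subunit c. Its companion Atp5g2 changed by -0.44 ± 0.21 and Atp5g3 by -0.23 ± 0.16, and neither passed. Uqcrb of complex III fell from 164 and 131 CPM to 91.1 and 88.3 CPM (-0.72 ± 0.18), and Ndufs6 of complex I from 80.9 and 72.5 CPM to 44.5 and 43.3 CPM (-0.80 ± 0.22). Atp5a1, Cox6c, Cox7c and Atp5o, the stalk subunit that links head and membrane part, fell as well, with log2 changes of -0.45, -0.59, -0.78 and -0.66. Uqcrb, Cox6c, Cox7c, Atp5o and Atp5g1 have near-identical copies elsewhere in the genome, so their reads could be split. A positive log2 change was seen for 12 members, led by Ndufa3 at 0.37 ± 0.22 and Cox8a at 0.27 ± 0.19, and none of these passed. The WT count fell without day 1 replicate 1 and without either day 4 replicate, and so did the number of all genes called.

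In KO cells Atp5k went from 117 and 184 CPM on day 1 to 42.6 and 40.3 CPM on day 4, a log2 change of -1.86 ± 0.21 (adjusted p = 4.4e-06). Uqcr10 (-1.73), Ndufs6 (-1.84), Atp5e (-1.74) and Uqcrb (-1.42) fell too, as did Ndufs8, an iron-sulfur subunit of complex I (-1.31), and Uqcrfs1, the Rieske iron-sulfur protein of complex III (-1.11). For all of these the day 4 libraries were below the day 1 libraries. The 6 members not called were Sdha, Ndufs1, Cox6a2, Ndufa3, Ndufa13 and Atp5s, with log2 changes of -0.21, -0.37, -0.89, -0.44, -0.53 and -0.23. Sdha, the flavoprotein of complex II, stayed in a narrow range in both genotypes, 221 to 291 CPM over the WT libraries and 239 to 295 CPM over the KO libraries. Its partner Sdhb, the iron-sulfur subunit, fell in both, with a log2 change of -0.40 in WT (adjusted p = 0.047) and -0.97 in KO (adjusted p = 9.1e-05). Of the membrane anchors, Sdhc (-0.90) and Sdhd (-0.52) fell in KO, and their WT values of -0.29 and 0.09 did not pass the test.

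Length moved with both courses. The median log2 change of the shortest 20% of genes was -0.35 in WT and -0.998 in KO, and that of the short members -0.30 and -0.96. Longer genes had medians of 0.10 and 0.20. The 27 members counted as longer by their longest transcript had medians of -0.32 in WT and -0.95 in KO. Of them 8 and 24 fell, where 21.4% and 27.1% of longer genes did. With GC and length trends taken out, 8 members rose and 11 fell in WT (median -0.08), and 4 rose and 40 fell in KO (median -0.36). Over all genes, 9007 of 17694 were called in either direction in WT and 11061 in KO. In that fit the KO changes of Atp5k (-0.54), Uqcr10 (-0.39), Ndufs8 (-0.31), Uqcrb (-0.56), Uqcrfs1 (-0.55) and Ndufs6 (-0.86) were smaller but still called, and Atp5e was at -1.30. The length trend may treat Atp5e as a longer gene, since its exons cover 1756 bases and its coding transcript 421. Without KO day 1 replicate 2 fewer members were called in KO, and fewer of all genes were called as well. In the same comparisons 40 and 74 of 75 mitochondrial ribosomal protein genes and 23 and 88 of 88 cytosolic ribosomal protein genes fell in WT and KO. Assembly factors, which build the complexes, fell in 10 of 46 and 29 of 46 cases, among them Ecsit, a complex I assembly factor (-1.34 and -1.76). Mitochondrially encoded subunits were called lower in 0 of 13 cases in WT and 4 of 13 in KO, with medians of -0.00 and -0.17, and in WT 0 of the 13 had an unadjusted p below 0.05 in edgeR. Of the regulators of mitochondrial biogenesis, 5 of 15 fell and 1 rose in WT, and 7 fell and 2 rose in KO. Tfam, which packages and transcribes mitochondrial DNA, was among those that fell (-0.58 and -0.77).

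For 9 members the interaction of genotype and day was called between day 1 and day 4, each with a lower log2 change in KO. These were Cox8a (-1.40 ± 0.27), Atp5k, Atp5e, Ndufs7, Uqcr10, Cox6a1, Uqcrfs1, Ndufv3 and Ndufb10, and 0 differed the other way, against 3.83% of all genes lower and 2.59% higher (6.42% in all). The median over the 79 members was -0.74 and that of the shortest 20% of genes -0.62. Since the day 1 libraries enter it, the count moved with them, and so did the number of all genes called. Leaving out KO day 1 replicate 1 gave 58 and leaving out its replicate 2 gave 1, while 4 and 0 were called when WT day 1 replicates 1 and 2 were left out. For WT day 4 replicates 1 and 2 the counts were 0 and 3, and for either KO day 4 replicate 1. With GC and length trends taken out it was 2, against 853 of 17694 genes.

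The tissue isoforms other than Cox7a1 were low or followed their own course. Cox8c, the testis form of subunit VIII, fell in both genotypes. It had 3.1 and 3.0 CPM on day 1 and 0.1 and 0.4 CPM on day 4 in WT (-3.65 ± 0.49, adjusted p = 3.7e-05), and 2.5 and 3.2 CPM on day 1 and 0.2 and 0.1 CPM on day 4 in KO (-4.31 ± 0.52, adjusted p = 8.1e-06). On days 2 and 3 its WT libraries had 0.9 to 2.3 CPM and its KO libraries 0.6 to 1.9 CPM, and its genotype differences did not pass on any day. Cox8a, its ubiquitous counterpart, had 80.4 and 75.3 CPM on day 1 and 106 and 82.2 CPM on day 4 in WT. Cox6a2, the muscle form of subunit VIa, had 31 and 18 counts in the WT libraries of day 1 and 1 and 0 counts on day 4, a ratio of 25.2 with an exact 95% counting interval of 4.32 to 1017, and was called lower (adjusted p = 0.030). On day 3 it had 4 counts in WT replicate 1 and 75 in replicate 2, so that a single library carried its mean. Cox7b2 fell in KO from 62 and 53 counts to 2 and 3 counts. Cox6b2, the testis form of subunit VIb, was less rare. It was highest in WT on day 2, at 47.6 and 57.5 CPM, and in KO on day 1, at 37.8 and 63.0 CPM, and it fell in the KO course (-0.95 ± 0.24). Of 6 germ cell markers, 5 were tested and all 5 were lower in KO in the mean of the 4 days, with 88.4 to 142 CPM in sum against 144 to 298 CPM in WT. The part of that in the testis isoforms was not tested.

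**Figure D4:**
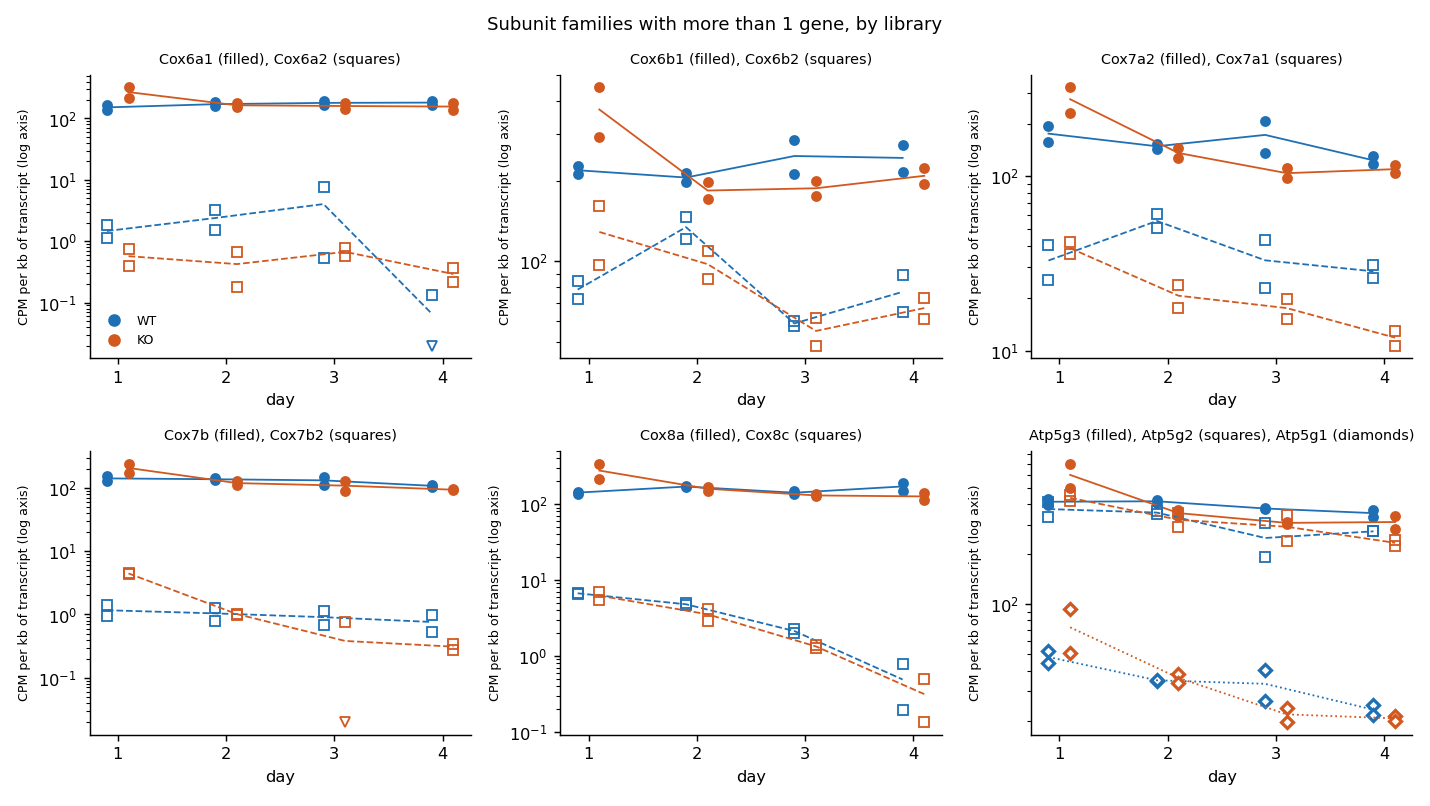
Levels of the subunit families with more than 1 gene (CPM per kb of transcript, log axes) against day, with a point for each library and lines through the means. Downward triangles mark libraries with 0 counts and are drawn at the bottom without a value. Cox7a1 in KO falls to 10.7 and 13.0 CPM per kb on day 4, below all WT libraries, whereas Cox7a2 overlaps between genotypes on day 2 and lies lower in both KO libraries on days 3 and 4.

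At the diff_XEN endpoint the genotypes differed gene by gene and not in 1 direction. Of 77 members tested, 7 were higher and 10 lower in KO, with a median log2 change of 0.05, while 22.1% of all 16671 genes were higher and 24.9% lower, and 47% in either direction. The share of members called was below that of all genes. Higher were 6 members of complex I and Cox6c, and lower were 3 members of complex I, 2 of complex II, 1 of complex III, 3 of complex IV and Atp5s.

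Ndufs1, the largest iron-sulfur subunit of the electron input arm of complex I (chr1:63143596-63176833, GRCm38, minus strand), had 172 and 188 CPM in WT and 68.2 and 64.2 CPM in KO clones C4 and 5-3. Its log2 change was -1.42 ± 0.16 (adjusted p = 0.0031), and the call held in all 10 alternatives, from -1.51 to -1.04. Its exons overlap those of Eef1b2 on the opposite strand, and the strand setting of the counting is not given in the sources used here. Ndufb3, a membrane arm subunit, had 45.2 and 47.6 CPM in WT and 21.1 and 19.0 CPM in KO (-1.18 ± 0.17, adjusted p = 0.0051), also called in all 10. The KO clones were close to each other and below both WT libraries in these genes. Sdhd went from 187 and 185 CPM in WT to 109 and 109 CPM in KO (-0.74 ± 0.15), and Sdhc from 146 and 135 to 84.6 and 94.5 CPM (-0.62 ± 0.17). These are the anchors of complex II, whose other subunits did not pass, at -0.09 for Sdha and 0.35 for Sdhb. The summed level of complex II was 592 and 589 CPM in WT and 458 and 465 CPM in KO. Higher in KO were Ndufb9 (62.5 and 59.9 CPM in WT, 102 and 119 CPM in KO, 0.88 ± 0.17), Ndufa7 (0.78), Ndufb6 (0.73), Ndufa6 (0.70), Ndufa11 (0.69) and Ndufb11 (0.56), all accessory subunits of complex I.

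Cox7a1 was low here, with 11.5 and 4.0 CPM in WT against 1.9 and 2.2 CPM in KO, and was called lower (-1.88 ± 0.57, adjusted p = 0.042). Cox7a2 had 85.8 and 84.9 CPM in WT against 77.7 and 82.9 CPM in KO and was not called. Cox7b (-0.69), Uqcrb (-0.64) and Atp5s (-1.17) were lower, but GC content moved with this comparison. Fold change and GC content had a Spearman rho of 0.35 over 16565 genes and 0.36 over the 77 members, and after GC and length trends were taken out Cox7b and Uqcrb were at 0.10 and 0.28 and Atp5s at -0.17, and none of these passed (adjusted p = 0.59, 0.20 and 0.56). Of the higher members, Ndufa6 (0.44), Ndufb11 (0.35) and Ndufa11 (0.18) lost their call in that fit, and Ndufb9, Ndufa7, Ndufb6 and Cox6c kept theirs. In all, that fit called 12 members higher and 10 lower, against 7468 of 16671 genes in either direction. The count of 17 fell without WT replicate 2, without clone C4 and without clone 5-3, and so did the number of all genes called. The cultures also differed in their makeup. Endoderm markers summed to 8830 and 13839 CPM in WT and 1302 and 1555 CPM in KO, with 8 of 8 lower. Mesenchyme markers had 712 and 312 CPM in WT against 2323 and 3705 CPM in KO, and proliferation markers 1131 and 1627 against 267 and 293 CPM. The part of these in the members' differences was not tested.

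In diff_XEN all 13 mitochondrially encoded subunits had a negative log2 change between KO and WT, whereas the nuclear members went in both directions. Of 13 such genes, 0 were higher and 6 lower in KO diff_XEN, with a median of -1.28, among them mt-Co1 (-1.33), mt-Nd1 (-1.62) and mt-Nd4 (-1.72). Their summed level was 18608 and 26922 CPM in WT and 7165 and 9232 CPM in KO, while the 79 nuclear members summed to 7849 and 6995 CPM in WT and 7651 and 7689 CPM in KO. Of 15 regulators of mitochondrial biogenesis tested in diff_XEN, 5 were lower and 1 higher in KO. The lowest was Lrpprc (-1.90), which stabilises mitochondrial messenger RNA. In the mean of days 1 to 4 Lrpprc was at -0.32, where 0 of 13 mitochondrially encoded genes were called, with a median of -0.0027. A link between them was not tested. The difference between the nuclear and the mitochondrial set was not tested. GC content moved with the diff_XEN comparison, as described above. There the group of genes lowest in GC content had a median log2 change of -0.85 between KO and WT. The group highest in GC content had a median of 0.52. The part of GC content in the lower levels of the mitochondrially encoded genes was not tested.

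**Figure D5:**
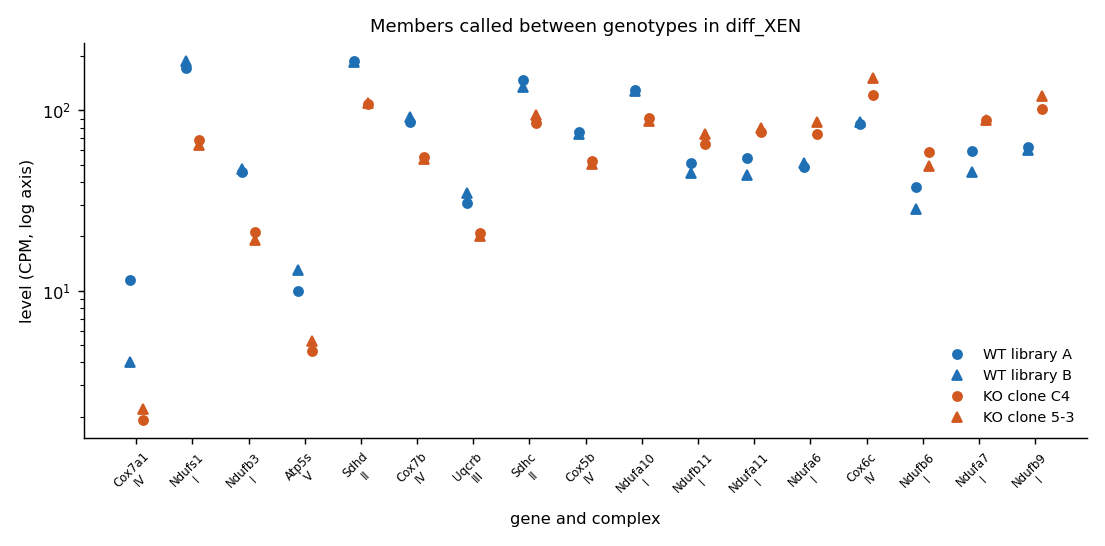
Levels of the 17 members called between genotypes in diff_XEN (CPM, log axis) in 2 WT libraries and KO clones C4 and 5-3, ordered by log2 fold change, with the complex under each gene name. Both clones lie on the same side of both WT libraries for each of the 17 genes, from Cox7a1 at the left to Ndufb9 at the right.

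Between undifferentiated and differentiated WT cells 21 of 79 members were lower and 7 higher in diff_XEN, with a median of -0.42, against 25.3% of all genes lower and 27.2% higher (52.5% in all). These libraries come from different earlier studies, so study and state cannot be told apart. Cox7b went from 180 and 253 CPM in mESCs to 86.6 and 91.9 CPM in diff_XEN (-1.28 ± 0.23, adjusted p = 0.0036), Cox5a from 227 and 387 CPM to 123 and 97.0 CPM (-1.48 ± 0.29), and Uqcrb from 69.3 and 137 CPM to 30.5 and 34.9 CPM (-1.66 ± 0.33). Cox6c, Ndufa5, Atp5h, Atp5j and Atp5b were lower too, at -0.96, -1.03, -0.87, -1.21 and -0.88. In each of these 8 genes both diff_XEN libraries were below both mESC libraries, and 7 of 17 members of complex V were lower in all.

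Higher in diff_XEN were Ndufa13, with 24.3 and 16.5 CPM in mESCs and 73.8 and 59.0 CPM in diff_XEN (1.70 ± 0.26, adjusted p = 0.0019), Ndufb7 (1.67), Ndufs7 (1.37), Atp5d, the delta subunit of the ATP synthase head (1.20), Ndufa2 (1.07), Cox6b2 (1.06) and Uqcrq (1.04). Over the 79 members the fold change had a Spearman rho of 0.53 with GC content, and of 0.19 over 17807 genes. With GC and length trends taken out, 15 members were higher and 11 lower, with a median of -0.12. Over all genes, 9375 of 17936 were called in either direction in that fit. All 7 named rises kept their call, while Cox7b (-0.43), Uqcrb (-0.52), Atp5h (-0.25) and Ndufa5 (-0.59) lost it. The count of 28 fell without mESC replicate 2 and without either WT diff_XEN replicate, and so did the number of all genes called. Assembly factors were lower in 11 of 46 cases and higher in 3, mitochondrially encoded subunits lower in 6 of 13 and higher in 0, and mitochondrial ribosomal protein genes lower in 40 of 75 and higher in 3.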

How the data were processed

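Polyadenylated RNA libraries of 22 samples were used, 16 of days 1 to 4 and 6 of the endpoint, out of 24 listed. The authors deposited raw counts per gene, made, as the submitters' processing notes list, with STAR 2.5.0c, the mm10 build and featureCounts 1.4.5-p1. The annotation and the strand setting of the counting are not given in the sources used here. The labels call the protocol reverse-stranded. A further 3 KO columns that no label ties to a sample were not used. Endpoint genes were matched to the 79 members by Ensembl identifier.

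The test was edgeR's quasi-likelihood test (version 4.0.16, R 4.3.3). Libraries were scaled by TMM, genes were filtered by filterByExpr, the fit was robust, and p-values were adjusted by Benjamini-Hochberg over all genes tested, with a threshold of 0.05. The 16 course libraries formed 1 fit, the 4 diff_XEN libraries another, and all 6 endpoint libraries a fit for diff_XEN against mESC, for which tables with the same identifiers were joined. Fold changes are log2 with the SE from the F statistic. CPM is relative to the TMM-scaled library size, and per kb uses the GENCODE M21 transcript with the longest coding sequence. Length classes and length trends use the longest annotated transcript of each gene instead, coding or not. No replicates were merged: chi-square divided by its degrees of freedom was 12.6 to 149 within groups, above sampling noise. Intervals cover counting error only.

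Alternatives were DESeq2 1.42.0 and its size factors, total-count and upper quartile scaling, no expression filter, smaller fits, the replicate number as a block and leaving out each library. A fit with GC and length trends as offsets was added after seeing the data. The pipeline was tested on simulated counts. Near-identical copies (at least 95% identity over 100 bases of coding sequence) were found for 21 members, antisense exon overlap for 24 and same-strand overlap for 5.

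Members are the genes of the name rule. Named are the isoform families, the complex II genes, Ago2, up to 8 called members per direction and comparison with the smallest p, and the highest and lowest member of each complex, and of other lists at most 3 called genes. Members and lists were chosen with earlier results of these data known. Some names outside this rule were chosen after their values were seen.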

Additional observations from a re-analysis of the deposited data

Results flagged for a closer look

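An interaction term in edgeR called 9 members whose log2 change from day 1 to day 4 was lower in KO than in WT cells. The days between did not enter this difference. The log2 differences, KO minus WT, were -1.40 for Cox8a, -1.28 for Atp5k, -1.29 for Atp5e, -1.09 for Ndufs7, -1.13 for Uqcr10, -1.04 for Cox6a1, -0.75 for Uqcrfs1, -0.995 for Ndufv3 and -1.08 for Ndufb10. In WT cells Cox8a went from 80.4 and 75.3 CPM to 106 and 82.2 CPM, and in KO cells from 117 and 187 CPM to 76.9 and 61.8 CPM. Without KO day 1 replicate 2, Cox8a kept its call at -1.01 (adjusted p = 0.047), and the other 8 lost theirs. With GC and length trends taken out, Atp5e kept its call at -1.01 (adjusted p = 0.034), while Cox8a, Atp5k, Uqcr10 and Cox6a1 were at -0.47, -0.37, -0.20 and -0.12 and lost it. The exons of Atp5e cover 1756 bases in all and its coding transcript 421. A trend that uses the longest annotated transcript may thus treat Atp5e as a longer gene. The part of KO day 1 replicate 2 and of transcript length in the 9 differences was not tested further.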

How the results depend on the processing

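With 2 libraries per group, 1 library can decide a call, and leaving out a library also moved the number of all genes called. Leaving out each library in turn gave 0 to 64 members called on day 1, 0 on days 2 and 4, 0 to 9 on day 3, 1 to 7 in the mean of the 4 days, 3 to 19 in the WT course, 57 to 76 in the KO course, 0 to 58 for the difference of the courses, 2 to 13 in diff_XEN and 7 to 37 for diff_XEN against mESC. A group left with 1 library is assumed to vary like the others. With total-count scaling 17 members were called on day 1, 3 on day 3, 2 on day 4, 5 in the mean and 35 in the WT course. With upper quartile scaling the counts were 2 on day 3, 5 in the mean and 42 in the WT course, where that scaling shifts the median of all genes by -0.22 (by -0.27 in the KO course and -0.12 for diff_XEN against mESC), as total-count scaling does by -0.12 on day 1. DESeq2 called 2 on day 3 and 25 for the difference of the courses, and with its size factors in edgeR 1 was called in the mean. Without an expression filter the counts were 2 on day 2, 8 on day 3, 2 on day 4, 4 in the mean and 41 for the difference of the courses, and fits of single days gave 3 on day 2 and 2 on day 4. GC and length offsets gave 8 on day 1, 2 on day 3, 4 in the mean, 44 in the KO course and 2 for the difference of the courses. They also turned the sign of Cox6a1 on day 1 (-0.00905) and, in diff_XEN, of Cox7b (0.10) and Uqcrb (0.28). The cause of these shifts was not tested. The other counts stayed within 1.5 times the reported ones.

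Deviations of same-numbered libraries correlated at -0.18 to 0.39 over 28 pairs of groups and exceeded 0.1 in 7. Such correlations cannot decide whether replicate numbers pair the samples, since each group gives only the difference of its 2 libraries. Pairing was not tested further. With the replicate block 23 members were called on day 1 and 4 for the difference of the courses. No paired analysis was possible for the endpoint because the diff_XEN columns carry no replicate number of the labels. At 2 libraries per group small changes cannot be resolved, and calls near the threshold depend on the fit.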
